A study of Mus musculus with 24 samples.

Results

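A cluster of repeated genes on chromosome 14 (GRCm38), with BC061237, Gm3543 and 1700001F09Rik among its members, carried m6A peaks in kidneys of the injury group (IG) and the treatment group (TG), and in no control kidney. The members were all peaks between positions 41000000 and 45000000 of chromosome 14, which were 155 of the 91013 peaks listed for 12 kidneys and formed 49 of 16801 loci. A locus is a stretch in which peaks of any kidneys overlap by at least 1 bp. The window and the 3 genes were chosen by the gain of peaks in IG against control (IvC), so every IvC value below is a description and no test of it is given. The members were largely repeated sequence: 48 of the 49 loci had at least 1 further copy in the genome with 90% or more identical bases. The exception was a locus in Mbl1, a mannose-binding lectin gene.

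N6-methyladenosine was profiled by MeRIP-seq, in which an antibody pulls down methylated RNA fragments that are then sequenced. The mice were male C57BL/6 animals of 8 weeks. Controls received vehicle only (n = 4), IG received vehicle and then cisplatin at 20 mg/kg (n = 4), and TG received 14 daily doses of berberine (20 mg/kg per day) and then the same cisplatin dose (n = 4). Kidneys were collected 72 h after cisplatin, a platinum drug that damages the renal tubule. Berberine is a plant alkaloid. Kidneys are named below by group and replicate number. The library kit kept strand, but whether peak calling used it was not given in the sources used here.

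m6A is the most common internal modification of mRNA and is placed by a methyltransferase complex that prefers the RRACH consensus, in which A or G fills both leading positions and any base but G follows AC. Clusters of near-identical genes arise by repeated duplication of a DNA segment. A read from one copy can match its neighbours equally well, so the copy that receives a peak depends on how the aligner placed such reads. For these lists that setting was not given in the sources used here. The gene names are placeholders given by cDNA and gene prediction projects, and no role in the kidney is stated here for the proteins.

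Of the 82 protein-coding genes that GENCODE annotates in the window, 9 share one build, with an exon 2 of 157 bases followed by an exon 3 of 132 bases: Gm3486, Gm3676, Gm47189, Gm3543, Gm3573, Gm10377, 1700001F09Rik, Gm10375 and BC061237. Another 55 genes have a 163-base exon in front of a 132-base exon. The remaining 18 genes included Mbl1, the surfactant protein genes Sftpa1 and Sftpd, the methionine cycle gene Mat1a, the prostaglandin receptor genes Ptgdr and Ptger2 and the ribonuclease genes Ear1, Ear2, Ear10, Ang5 and Ang6.

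The second exon is shown because it held more peaks than any other exon when those of the 9 genes were added over IG and TG kidneys. It is coding throughout. Capitals in BC061237 mark the RRACH sites, of which there are 3, and capitals in the other lines mark bases that differ from BC061237. All are printed in the direction of the gene. BC061237 exon 2 lies on the plus strand at chr14:44501162-44501318, Gm3543 exon 2 on the minus strand at chr14:41982134-41982290, Gm3573 exon 2 on the minus strand at chr14:42189599-42189755, and the exon of Gm4181, outside the window, on the minus strand at chr14:51634471-51634627.
BC061237: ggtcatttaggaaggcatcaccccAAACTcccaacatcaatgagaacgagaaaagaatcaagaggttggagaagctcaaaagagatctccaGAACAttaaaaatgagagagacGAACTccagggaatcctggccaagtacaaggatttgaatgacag
Gm3543: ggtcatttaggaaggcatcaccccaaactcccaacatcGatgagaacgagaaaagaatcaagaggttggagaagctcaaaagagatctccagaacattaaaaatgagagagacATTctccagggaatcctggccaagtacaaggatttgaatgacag
Gm3573: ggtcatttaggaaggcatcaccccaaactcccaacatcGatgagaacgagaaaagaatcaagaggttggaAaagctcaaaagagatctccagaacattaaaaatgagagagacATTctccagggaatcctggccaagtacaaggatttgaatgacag
Gm4181: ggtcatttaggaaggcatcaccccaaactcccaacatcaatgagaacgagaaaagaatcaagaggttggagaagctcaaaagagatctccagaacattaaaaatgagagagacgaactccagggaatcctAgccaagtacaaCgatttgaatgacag

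The second exons of Gm3543, 1700001F09Rik (chr14:43346634-43346790, minus strand) and Gm3486 (chr14:41488305-41488461, minus strand) were the same base for base. They differed from BC061237 at 4 bases, A39G, G114A, A115T and A116T, with positions counted from 1 at the 5′ end of the exon. Identity to BC061237 was thus 97.5%. Gm3573 carried G71A in addition. In Gm4181 the differences were G131A and G143C, and its identity to BC061237 was 98.7%. Peaks at the second exons of Gm3543, 1700001F09Rik and Gm3486 therefore cannot be assigned to one gene by reads lying within the exon, while BC061237 exon 2 had no identical copy. All second exons printed here held 3 RRACH sites.

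The fourth exon of BC061237 is shown because its peak had the highest score in the window. It lies at chr14:44504107-44504291 on the plus strand, and the matching exon of 1700001F09Rik lies at chr14:43344504-43344688 on the minus strand. Both are coding. Capitals mark RRACH sites in BC061237 and differing bases in 1700001F09Rik.
BC061237: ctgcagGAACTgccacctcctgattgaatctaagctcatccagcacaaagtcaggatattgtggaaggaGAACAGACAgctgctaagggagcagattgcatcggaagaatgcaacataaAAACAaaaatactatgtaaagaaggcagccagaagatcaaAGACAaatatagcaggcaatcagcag
1700001F09Rik: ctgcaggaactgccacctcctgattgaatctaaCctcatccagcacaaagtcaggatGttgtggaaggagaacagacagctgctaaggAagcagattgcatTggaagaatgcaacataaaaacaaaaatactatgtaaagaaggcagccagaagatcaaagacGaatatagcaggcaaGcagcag

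The 2 exons were 96.8% identical, with 6 differing bases of 185. RRACH was found 5 times in BC061237 and 4 times in 1700001F09Rik, on the gene strand and counting overlapping sites. Over the loci of the window, 85.7% held RRACH, against 93.8% of all 16801 loci. GGACT, a form of RRACH, was held by 26.5% of the loci of the window and by 39.1% of all loci. Loci of the window were shorter, with a mean of 248 bp against 683 bp. Among loci of 141 to 173 bp, RRACH was held by 9 of 9 in the window and by 93.0% of the 1625 in all lists, and GGACT by 0 of 9 and by 12.6%. The 9 loci are copies of the same exon 2 and do not count as separate observations. The match is a description of the letters and not of a methylated base.

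Control kidneys had 0, 0, 1 and 0 peaks in the window for replicates 1 to 4. The corresponding IG kidneys had 18, 14, 14 and 16 peaks. TG kidneys had 19, 15, 23 and 35. No control kidney reached any IG or TG kidney, and the ranges of IG and TG overlapped. The means were 0.250 ± 0.500 in controls, 15.5 ± 1.91 in IG and 23.0 ± 8.64 in TG (SD, n = 4). The single control peak, in control 3, covered Mbl1 exon 5 with a score of 17.2. None of the 9 genes with the 157-base exon 2 and none of the 55 related genes had a peak in a control kidney.

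**Figure D1:**
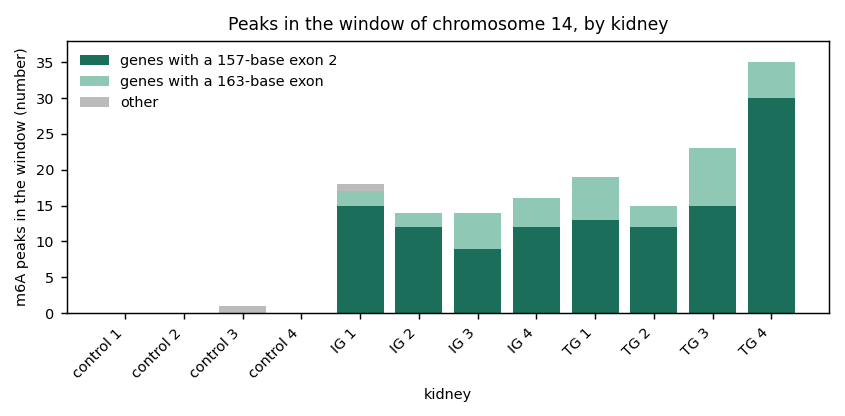
Stacked bars give the number of m6A peaks in the chromosome 14 window (y axis) for each of the 12 kidneys (x axis), split into genes with a 157-base second exon, related genes with a 163-base exon, and all others. Controls hold 0 or 1 peak, IG kidneys 14 to 18 and TG kidneys 15 to 35.

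Every TG kidney stood above every control kidney. Against control (TvC), TG kidneys had 22.8 more peaks on average. The difference of TG against IG (TvI) was 7.50 peaks, which was smaller than the SD of the TG kidneys. Without TG 2 it was 10.2 peaks, and without TG 4 it was 3.50. Among peaks scoring at or above the median over the lists, TvC was 9.25 peaks and TvI was 3.50. No test is given for either comparison, because the window was chosen on the peaks of these same control and IG kidneys.

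The lists were longer in controls (8531 to 9579 peaks) than in IG (6745 to 8357) or TG (5901 to 6753), so the window held more peaks in the groups with shorter lists. When each list was reduced to its 5901 highest-scoring peaks, control kidneys had 0 peaks in the window, IG 8 to 15 and TG 14 to 31. The adjoining 4 Mb after the window held 24 to 28 peaks in controls, 22 to 27 in IG and 18 to 24 in TG. In the 4 Mb before it there were 0 peaks in controls, 1 or 2 in IG and 0 to 2 in TG. In the stretch after the window the counts were thus highest in controls, unlike those within it.

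MACS numbers its peaks along the chromosome, also those later left out because they did not overlap exons of mRNA. On chromosome 14 the numbers rose without exception, so the step in number between the listed peaks on both sides of the window gives how many peaks were called between them, listed or not. In controls 7 to 11 peaks had been called between those flanking peaks, over stretches from 36941264 or 36968777 to between 45134802 and 45135087. The same count was 46 to 66 in IG and 41 to 65 in TG. The stretches differed between groups. Those of IG began later, at 40815960 to 40893266, and ended later, at 45329824 to 45482432. Those of TG ended at 45135218 to 45135400. TG 1 and TG 3 began at 40893266. TG 2 and TG 4 began at 36941264, close to the controls, and had 56 and 65 called peaks. The low control counts were thus present before the exon filter.

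**Figure D2:**
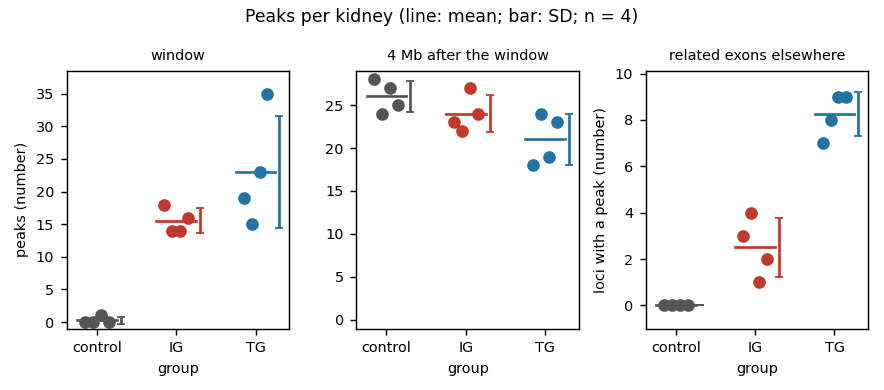
Points are kidneys, lines are means and bars are SD (n = 4 per group) for peaks in the window, peaks in the 4 Mb after it, and loci with a peak at related exons elsewhere on chromosome 14 (number on each y axis). Controls sit at 0 or 1 in the first panel and at 0 in the third, while in the second they have 24 to 28 peaks, the highest of the 3 groups, and TG kidneys have 18 to 24.

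Because near-identical copies can share reads, the loci were also joined into copy groups. In these, sequences align with at least 90% identity over at least 80% of the shorter one. The 49 loci fell into 9 copy groups. The largest held 11 copies of exon 3. Copies of exon 2 formed a group of 9 loci, those of exon 5 a group of 8, those of exon 4 a group of 7 and those of exon 1 a group of 6. These groups hold only copies with a peak. At 90% identity, BC061237 exon 3 had 85 further copies in the genome and exon 4 had 59. Exons 1 and 2 had 11 each, and exon 5 had 12. Control kidneys held a peak in 0 or 1 copy groups, IG kidneys in 7, 6, 7 and 6, and TG kidneys in 6, 5, 7 and 6. Counted in this way, TG minus IG was -0.500 copy groups on average, less than the SD of either group (0.577 in IG, 0.816 in TG), and it turned to 0.250 when copies had to be 95% identical. TG exceeded control by 5.75 copy groups. No test is given for either difference, because the control and IG kidneys chose the window. Every copy group with a TG peak also had an IG peak, so the additional TG peaks lay in further copies of the same exons.

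All 9 genes with the 157-base exon held a peak in at least 1 IG kidney and at least 1 TG kidney. Of the 55 genes with the 163-base exon, 6 held a peak in IG and 8 in TG. In the first set the peaks numbered 48 in IG and 70 in TG, and in the second 13 and 22. Of the other 18 genes only Mbl1 held a peak on its strand. One short locus of 41 bp in IG 1, with a score of 13.9, lay in no protein-coding gene on its strand. No test was made between the sets, because reads that match several genes can make their counts depend on each other.

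Of the 155 peaks, 140 covered exactly 1 annotated exon, as did 43 of the 49 loci, and 27 loci lay wholly within coding sequence. The lists hold only peaks at mRNA exons. How many of all listed peaks cover exactly 1 exon was not counted, so the match is not shown to be particular to the window. The median length of the peaks in the window was 144 to 157 bp in IG and 157 to 184 bp in TG, against 332 to 421 bp for the remaining peaks of the same lists. Within kidneys the window was shorter by 182 bp on average and in 8 of 9 kidneys, the exception being control 3 with its single Mbl1 peak. Against the remaining peaks of chromosome 14 alone the difference was -77.6 bp. No test is given, because the same exons recur in each kidney and set these lengths. Exon 2 held 20 of the 48 peaks of the 9 genes in IG and 23 of 70 in TG. Exon 3 held 8 and 17, exon 1 held 11 and 10, exon 4 held 5 and 12, and exon 5, which is mostly 3′ UTR, held 4 and 8.

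**Figure D3:**
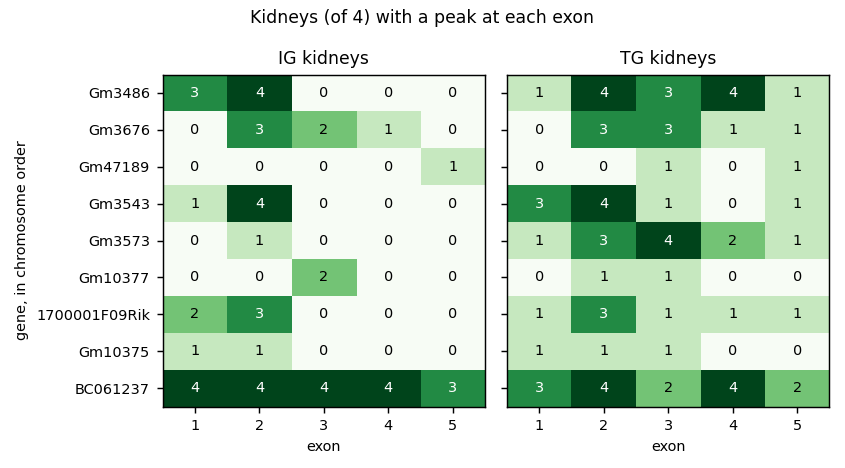
Each cell gives the number of kidneys, of 4, with a peak at one exon (x axis) of one of the 9 genes with a 157-base second exon (y axis), for IG on the left and TG on the right. BC061237 has peaks at all 5 exons in both groups, while the other genes are filled mostly at exons 1 to 3 in IG and more evenly in TG. Of the 8 TG peaks at exon 5, 7 are from TG 4.

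BC061237, annotated at chr14:44492463-44506345 on the plus strand, carried the highest scores. The score is the negative log10 of a peak's p-value times 10, and scores in the window ran from 13.2 to 1599. BC061237 had a peak at 19 of 20 combinations of exon and kidney in IG, at 15 of 20 in TG, and at none in controls. None of its exons 2, 3, 4 and 5 has an identical copy elsewhere in the assembly, and exon 1 has 1.

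Exon 4 of BC061237 scored 460, 711, 332 and 780 in IG 1 to 4. In TG the scores were 707, 961, 745 and 1599. These values stood at or above the 82.9th percentile of the scores in each list for IG and at or above the 91.4th for TG. The lowest TG values fell inside the IG range, and TG 4 stood highest.

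Exon 2 of BC061237 scored 536, 499, 323 and 687 in IG, and 610, 874, 993 and 1280 in TG. The groups overlapped only between IG 4 and TG 1. Exon 1, which is mainly 5′ UTR, scored 224, 306, 261 and 204 in IG and 368, 419 and 596 in TG 1, 2 and 4, with no peak in TG 3. All 3 TG scores at exon 1 lay above the 4 IG scores. Scores also follow sequencing depth, which these lists do not give, so scores were not tested between groups.

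Exon 3 of BC061237 scored 15.6, 54.4, 58.9 and 26.4 in IG, and 27.3 and 112 in TG 3 and TG 4. Exon 5 scored 66.9, 45.9 and 122 in IG 1, 2 and 4, and 68.7 and 215 in TG 3 and TG 4. TG 1 and TG 2 thus lacked a peak at both exons, and the scores there were far below those at exons 2 and 4 of the same kidneys.

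**Figure D4:**
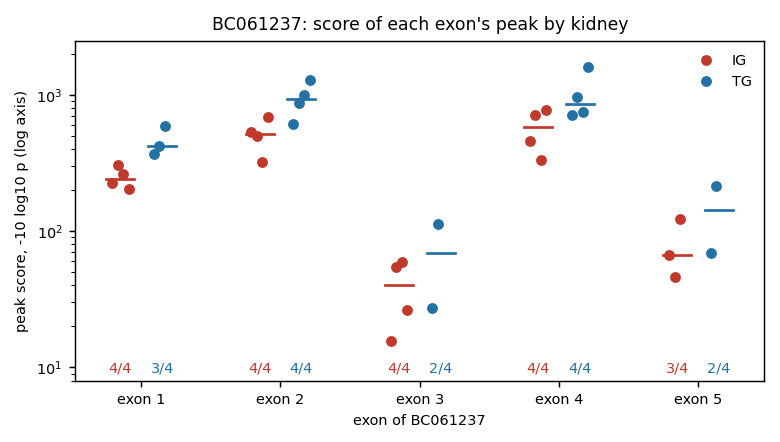
Points give the score (negative log10 p times 10, log axis) of the peak at each BC061237 exon in IG and TG kidneys, lines are medians, and the fractions at the foot give kidneys with a peak. Exons 2 and 4 have peaks in 8 of 8 kidneys with scores from 323 to 1599, and exon 3 has the lowest median in both groups.

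Gm3543 (chr14:41977873-41983325, minus strand) had 5 peaks in IG and 9 in TG. Its exon 2 scored 182, 44.5, 18.4 and 247 in IG and 148, 59.5, 341 and 660 in TG. The IG and TG values overlapped, and over the 8 kidneys they ran from 18.4 to 660. Its exon 1 had a peak with a score of 102 in IG 1, and scores of 42.8, 13.4 and 124 in TG 1, 3 and 4. Exons 3 and 5 each had a peak in 1 TG kidney. The gene 1700024B05Rik runs across Gm3543 on the opposite strand, without an exon at these loci.

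1700001F09Rik (chr14:43342383-43347811, minus strand) had 5 peaks in IG and 7 in TG, of which TG 4 held 4. Exon 2 scored 28.9, 32.1 and 30.4 in IG 1, 2 and 4, and 17.5, 36.0 and 266 in TG 1, 3 and 4. IG 3 and TG 2 had no peak there. Although its exon 2 has the same bases as those of Gm3543 and Gm3486, the scores of the 3 exons differed within a kidney, with 266, 660 and 154 in TG 4. How reads of identical sequence were divided between the copies was not tested.

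Gm3486 exon 2 scored 18.1, 17.8, 53.6 and 122 in IG and 25.3, 96.7, 32.4 and 154 in TG. It was thus 1 of the 4 loci with a peak in all 8 IG and TG kidneys, with Gm3543 exon 2 and exons 2 and 4 of BC061237. Gm3486 exon 1 scored 15.2, 26.5 and 31.2 in IG 2, 3 and 4 and 16.5 in TG 2. Gm3486 exon 4 had no IG peak and scored 24.0, 17.0, 16.1 and 36.9 in TG. Gm3486 exon 3 had no IG peak either and scored 16.1, 24.3 and 146 in TG 2, 3 and 4. The 4 scores at exon 4 lay between the 7.05th and 30.6th percentile of their lists.

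Gm3676 (chr14:41641179-41646487, minus strand) scored 102, 47.2 and 68.0 at exon 2 in IG 1, 3 and 4, and 83.7, 235 and 766 in TG 1, 3 and 4. At exon 3 it scored 114 and 77.1 in IG 1 and IG 2, and 71.0, 67.3 and 329 in TG 1, 3 and 4. TG 4 again had the highest value at both exons. Gm3573 exon 2 scored 13.8 in IG 3 and 32.6, 62.0 and 72.2 in TG 1, 2 and 4. Gm3573 exon 3 had no IG peak and scored 64.7, 64.5, 26.7 and 189 in TG. Gm3573 was the gene of the 9 with the fewest peaks in IG relative to TG, 1 against 11.

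Among the genes with the 163-base exon, the loci shared by most kidneys lay on the last exon of Gm8094, Gm8127, Gm8138 and Gm8229, which in these 4 genes is almost wholly 3′ UTR. Gm8229 exon 5 scored 47.9, 17.5, 26.0 and 25.5 in IG, and 16.6 and 26.3 in TG 3 and TG 4. Gm8094 exon 5 scored 24.8 and 71.2 in IG 1 and IG 4, and 138, 246, 94.9 and 115 in TG. These 2 genes of one copy group differed in opposite directions between IG and TG. Gm8229 had more IG kidneys and Gm8094 more TG kidneys, by 2 kidneys each, which Fisher's exact test cannot call at this group size. The Gm8229 difference was 0 at equal list lengths and 0 with scores at or above the median. The Gm8094 difference was 2 and 4 kidneys in these settings. Gm8127 exon 5 scored 199 and 36.0 in IG 3 and IG 4, and 35.7, 51.3 and 62.6 in TG 1, 2 and 3. Gm8138 exon 5 scored 14.6 and 13.2 in IG 3 and IG 4, and 20.8, 84.7 and 22.2 in TG 1, 3 and 4. Both had more TG than IG kidneys with a peak, by 1 kidney, but at Gm8127 exon 5 this turned to 1 fewer (a difference of -1) with scores at or above the median. Gm10376, whose annotated second exon has 163 bases, joined the copy groups of the 9 genes at exons 2, 3 and 5. Gm8127 and Gm8229 did so at exon 4, and Gm3327 at exon 3. All of these genes are counted here with the 55. The other 29 loci had a peak in at most 2 kidneys of any group.

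**Figure D5:**
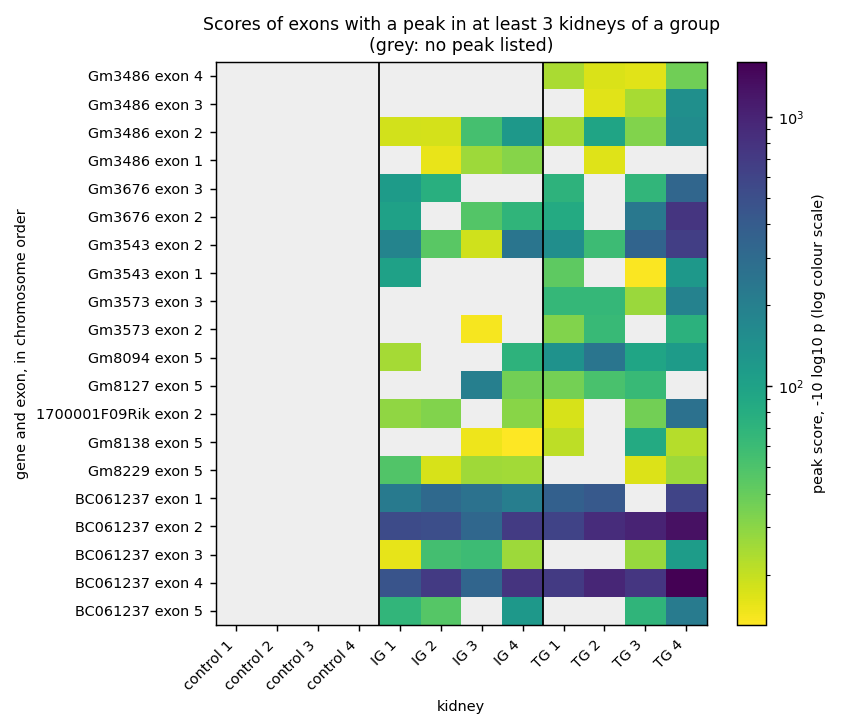
Colour gives the peak score (negative log10 p times 10, log colour scale) at the 20 loci that 3 or more kidneys of any group shared (rows, gene and exon in chromosome order) for the 12 kidneys (columns), and grey means no peak listed. The control columns are empty, and the rows of BC061237 exons 1, 2 and 4 are darkest in IG and TG, together with Gm3676 exon 2 and Gm3543 exon 2 in TG 4.

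Locus by locus, 7 loci of the window had a peak in 4 of 4 IG kidneys and in 0 of 4 controls: exons 1, 2, 3 and 4 of BC061237, exon 2 of Gm3543, exon 2 of Gm3486 and exon 5 of Gm8229. Of all 16061 loci with a peak in IG or control, 1.35% showed this pattern, and nothing is read from the contrast here because it chose the window. At equal list lengths, and also with scores at or above the median, 3 loci of the window showed it. For TvC the same pattern was found at 7 of the 48 loci of the window tested, against 0.996% of 15156 loci. These were exons 2 and 4 of BC061237, exon 2 of Gm3543, exons 2 and 4 of Gm3486, exon 3 of Gm3573 and exon 5 of Gm8094. Without TG 2 the TvC count was 12, and with scores at or above the median it was 3. The control kidneys in TvC are those on which the window was chosen.

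TvI uses the IG kidneys on which the window was chosen, so its counts are a description too. Peaks in 4 of 4 TG and 0 of 4 IG kidneys were found at 2 of the 48 loci, exon 4 of Gm3486 and exon 3 of Gm3573, against 0.225% of 13357 loci. Among peaks scoring 71.3 (the median over the lists) or more, Gm3486 exon 4 kept 0 of its 4 TG peaks and Gm3573 exon 3 kept 1, and the pattern was then found at Gm8094 exon 5 alone, where the IG 4 peak, at 71.2, fell just below the limit. The reverse pattern was found at 0 loci of the window, against 0.449%. With a difference of at least 3 of 4 kidneys, 3 loci of the window were gained in TG, against 1.28% of all loci, and 0 were lost, against 3.21%. A locus with 4 of 4 against 0 of 4 kidneys has p = 0.0286 in Fisher's exact test, the smallest that these groups allow, and the lowest adjusted p over all loci of TvI was 1.00. Of all TvI loci, 90 were below 0.05 before Benjamini-Hochberg adjustment and 0 after it.

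Of the 27 loci of the window with an IG peak, 26 also had a TG peak in at least 1 kidney. A further 21 loci had TG peaks only, and 11 of these were found in TG 4 alone. The matching shares over all loci were not counted, so these counts are not read as a trait of the window. TG 4 had a peak at 30 exons of the 9 genes, against 12 to 15 in the other TG kidneys.

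Sequences related to the cluster also occur elsewhere on chromosome 14, and peaks at them were counted after the values had been seen, so these counts carry no test. At 16 such loci outside the window, controls had 0 peaks, IG kidneys had 3, 4, 1 and 2, and TG kidneys had 7, 8, 9 and 9. A locus entered this set only through a peak in some kidney. All 16 had a TG peak and 6 had an IG peak. The counts of IG and TG kidneys did not overlap, but nothing is read from this, since the set was chosen with the values known. Of these loci, 14 lay in the first 8 Mb of the chromosome, with 74.7 to 75.4% identity to an exon of the cluster, in genes such as Gm2974, Gm6676 and Gm16434. Gm2974 had a peak in 4 of 4 TG kidneys and 0 of 4 IG kidneys, with scores of 21.1, 86.8, 85.2 and 29.9. Over all 13357 loci of TvI, 0.225% had this pattern. Gm6676 and Gm16434 each had a peak in 2 IG and 4 TG kidneys. The remaining 2 loci lay in Gm4181, whose exon is printed above. It scored 26.6 in IG 1 and 116, 39.6 and 144 in TG 1, 2 and 3.

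Peaks of one list that carry the same score could come from reads shared by copies. In the window 4 of 155 peaks had the score of another peak of chromosome 14 in the same list, and 1 pair lay inside the window, Gm3543 exon 3 and 1700001F09Rik exon 2 in TG 1, both at 17.5. The share of tied peaks was lower than on the rest of the chromosome on average (mean difference of -1.30 percentage points over 9 kidneys), and without TG 1, which held 3 of the 4, it was -2.77. With 1 to 35 peaks in the window of a kidney and 7 of the 9 kidneys at 0 ties, these counts are too small to bear on shared reads, and no test is read from them.

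Markers of other cell types were looked up in the same lists. Of the 8 genes of kidney epithelium, 0 or 1 had a peak in a control kidney, 2 or 3 in an IG kidney and 0 to 2 in a TG kidney, among them Cubn, an endocytic receptor of the proximal tubule, Slc12a1, the salt transporter of the thick limb, Nphs1, which encodes the podocyte protein nephrin, and Kl, the klotho gene of the distal tubule. Lrp2, Slc34a1, Umod and Aqp1 had none. Of the 6 leukocyte genes, 0 or 1 had a peak in a control kidney and 1 in each IG and TG kidney, from Ptprc and Itgam. None of the 4 eosinophil genes (Prg2, Epx, Siglecf, Ccr3) and none of the 6 male germ cell genes (Prm1, Prm2, Tnp1, Tnp2, Odf1, Acr) had a peak in any kidney. A peak requires both a transcript and its methylation, so a gene without one may still be expressed, and more transcript cannot be told apart from more methylation in these lists. The part of other cell types in the result was not tested.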

How the data were processed

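m6A MeRIP-seq peak lists of 12 kidneys (4 control, 4 IG, 4 TG) were analysed, and the 12 input libraries were not used here. The authors trimmed reads of 150 bp with cutadapt 1.9.3, aligned them with HISAT2 2.0.4 to mm10 (GRCm38), ran MACS on every kidney separately and retained peaks at mRNA exons. The deposited score of a peak is its negative log10 p times 10. The lists hold no counts, so the depth is unknown. The MACS version and threshold, and how reads with several matches were placed, are not given in the sources used here.

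Peaks overlapping by 1 bp or more were joined into loci regardless of strand. Genes are those of GENCODE M21, by the transcript with the longest coding sequence, and sequences are from the RefSeq copy of GRCm38. Copies were found with blastn 2.17.0, with at least 90% identity over at least 80%, on the assembled chromosomes. Counts per kidney are given as values: the exact permutation tests set out for TvI and TvC are not reported, since the IG and control kidneys chose the window, nor are the sign-flip tests of tied scores, which rest on too few peaks, and of peak length, which the exons set. Presence per locus was compared by Fisher's exact test over all loci with Benjamini-Hochberg adjustment, reported for TvI. Groups and replicate numbers come from the sample labels. Loci found in 3 or more kidneys of any group were named. One marker gene is not reported here. Members, lists and tests were chosen with earlier results of these data known. Scripts (Python 3.11.15, scipy 1.17.1) were tested on simulated data. Alternatives were equal list lengths, scores at or above the median of 71.3, another window, stricter identity, other joining rules, the replicate block and leaving out each kidney.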

Additional observations from a re-analysis of the deposited data

Results flagged for a closer look

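Among 29 sets of 4 values that were examined, 3 had a kidney far from the other 3, and chance alone marks about 1 in 20 such sets. TG 4 had 30 peaks in the 9 genes with the 157-base second exon, while the other TG kidneys had 12 to 15. TG 4 also had 11 loci of the window to itself, and the list of TG 4, with 6753 peaks, was the longest of the TG lists by a small margin. Control 3 stood apart with 1 peak and 1 copy group in the window, where the other controls had 0. That peak lay in Mbl1 and not in the repeated genes.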

How the results depend on the processing

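The mean difference in window peaks for IvC, 15.2 peaks, was 12 at equal list lengths, 5.75 with scores at or above the median, and 11.8 in a narrower window. It ranged from 14.4 to 15.8 when each kidney was left out. For TvI the leave-one-out range was 3.50 (without TG 4) to 10.2 (without TG 2), and for TvC it was 18.8 to 25.4, the highest also without TG 2. With scores at or above the median, TvI fell from 7.50 to 3.50 peaks and TvC from 22.8 to 9.25. The difference in copy groups for TvI, -0.500, turned to 0.250 with 95% identity. It ran from -0.833 (without TG 3) to -0.167 (without TG 2) when each kidney was left out. The number of window loci in 4 of 4 against 0 of 4 kidneys for IvC was 3 at equal list lengths and 3 with scores at or above the median, and 11 with a difference of at least 3 kidneys. For TvC it was 3 with scores at or above the median, 16 with at least 3 kidneys, and 7 to 12 when each kidney was left out, the highest without TG 2. For TvI it was 1 with scores at or above the median, at Gm8094 exon 5 and not at either of the 2 loci of the whole lists. That locus rests on the IG 4 peak, whose score of 71.2 lies just below the median of 71.3. Tied scores differed by -2.95 percentage points among scores of at least 30, and by -2.77 to -0.942 when each kidney was left out, the lowest without TG 1. Peak length differed by -77.6 bp against the remaining peaks of chromosome 14. Among scores at or above the median, TG minus IG kidneys with a peak turned to -1 at Gm3676 exon 3, -1 at Gm8127 exon 5 and 1 at BC061237 exon 3. The causes of these changes were not tested. Joining peaks within 100 bp or by 50% reciprocal overlap, counting loci in place of peaks, counting equal scores once and joining copies over the whole genome left each direction as it was.

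With the replicate block, TvI was 7.50 peaks and TvC 22.8, the same as without it, and 4 pairs could not reach 0.05 in a sign-flip test. Same-numbered kidneys correlated at -0.0215 to 0.0492 in their deviations from the group means over all loci, so the numbers did not pair the kidneys. The comparison of tied scores with the whole list and the related loci elsewhere were chosen after seeing the data. Without depths, an absent peak is not evidence of absent methylation.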
